A study of Mesocricetus auratus with 6 samples.

Results

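Follistatin, its relatives, the activin subunits and the activin receptors were read in uterus from pregnant Syrian golden hamsters on day 5 of pregnancy, as 10 of the 11963 genes that the array's annotation names alone for a probe set. The genes were FST, FSTL1, FSTL3, INHBA, INHBB, ACVR1, ACVR1B, ACVR2A, ACVR2B and ACVRL1. A probe set is a group of short probes designed on a transcript (an ID ending in _s_at or _x_at marks probes that can match further transcripts or genes), and every probe set was read separately, which gave 17 of 22215. The set was chosen from the comparison described here, for its high follistatin and for lower receptors. Its differences are therefore given as a description, with no p-value for a single probe set of the set. Counts of its probe sets past a threshold are given beside the share of all probe sets, and nothing is read from them. RefSeq lists a hamster gene under each of the 10 symbols.

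The study set uterus at an implanting blastocyst (implantation site, 3 arrays) against uterus between embryos (interimplantation site, 3 arrays). All animals were untreated golden hamsters, with no strain or age stated. The array titles number the 3 arrays of each group as biological replicates. The design names 3 animals, but no label ties an array to an animal, so p-values reflect only how far these arrays differ among themselves. The probes were built on human transcripts and read hamster RNA, so a dim probe set may reflect a poor match and shows neither absence of a transcript nor absence of a change.

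Activins are dimers of the inhibin beta subunits encoded by INHBA, INHBB and their relatives. They bind a type II receptor (ACVR2A or ACVR2B), which activates a type I receptor, mainly ACVR1B, and the signal passes to SMAD2 and SMAD3. Follistatin wraps around an activin dimer and covers the surfaces that the receptors need. In the rodent uterus follistatin is known as a gene of the stroma that differentiates into decidua around the embryo.

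Values are log2 RMA values as deposited, and differences are implantation minus interimplantation site with their standard error (SE) in limma. The array medians lay between 4.18 and 4.20, and no pair of arrays was identical. Of the 17 probe sets, 13 reached the median brightness of all probe sets (4.19) and 15 the first quartile (3.10). The uterine genes gave a weak check of the tissue: of 8 listed, 5 were measured, of which ESR1 and HAND2 were brighter than the median probe set and WNT4, PGR and MSX1 dimmer. A measure of RNA quality differed in mean between the groups: the actin signal from the 3′ end minus that from the 5′ end was −2.08 ± 0.22 at implantation sites and −1.70 ± 0.15 at interimplantation sites (SD of log2 values, n = 3; two-sided exact permutation p = 0.1, the smallest possible). For GAPDH it was −0.20 ± 0.16 and 0.13 ± 0.17 (exact permutation p = 0.2). In every array the actin signal was lower at the 3′ end than at the 5′ end. In the level of such values within an array, RNA quality and the match of these human probes to hamster RNA cannot be told apart. The same probes were used on all arrays of both groups. The part of RNA quality and of probe match in the differences below was not tested.

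Follistatin was higher at implantation sites at both of its probe sets, while its relatives FSTL1 and FSTL3 and the activin subunits INHBA and INHBB overlapped between the 2 groups. At 204948_s_at, the brighter FST probe set, the implantation arrays read 9.31, 9.24 and 9.18 and the interimplantation arrays 7.46, 7.47 and 6.91. The implantation arrays were nearly level, and interimplantation array 3 was the lowest of the 6. The difference was 1.96 ± 0.13 SE, or 3.89-fold, the second largest in size among the 22215 probe sets. At 207345_at, the other FST probe set, the values were 6.09, 6.32 and 6.19 against 5.09, 4.99 and 4.96. Here the interimplantation arrays were nearly level and all lay below the implantation arrays. The difference was 1.18 ± 0.08 SE, or 2.27-fold. Without interimplantation array 3 the difference at the brighter probe set was 1.78, and with the mean of both probe sets it was 1.57.

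The 2 relatives of follistatin were close to level. FSTL3, a secreted activin binder with fewer follistatin domains, read 5.71, 5.74 and 5.69 against 5.82, 5.72 and 5.76, a difference of −0.05 ± 0.07 SE (95% interval −0.21 to 0.11). FSTL1, a more distant secreted glycoprotein, read 5.07, 5.13 and 5.27 against 5.09, 4.99 and 4.92, a difference of 0.16 ± 0.08 SE (95% interval −0.02 to 0.34). The groups overlapped at both genes.

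The groups overlapped at the 2 activin subunits of the set, INHBA and INHBB (a further subunit, INHBC, is described with the other ligands). INHBA, the beta A subunit, read 4.33, 4.42 and 4.51 against 4.32, 4.46 and 4.51 at 210511_s_at, so the groups covered the same range. The difference there was −0.01 ± 0.08 SE, with a 95% interval from −0.19 to 0.17. Its other probe set, 204926_at, was dim at 2.47, 2.60 and 2.50 against 2.73, 2.62 and 2.58, with a difference of −0.12 ± 0.08 SE. INHBB, the beta B subunit, read 5.14, 5.00 and 5.01 against 4.84, 4.90 and 5.31. Interimplantation array 3 was the highest of the 6 here, and without it the difference of 0.03 ± 0.11 SE became 0.18. The 95% interval at this INHBB probe set was −0.22 to 0.29.

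**Figure D1:**
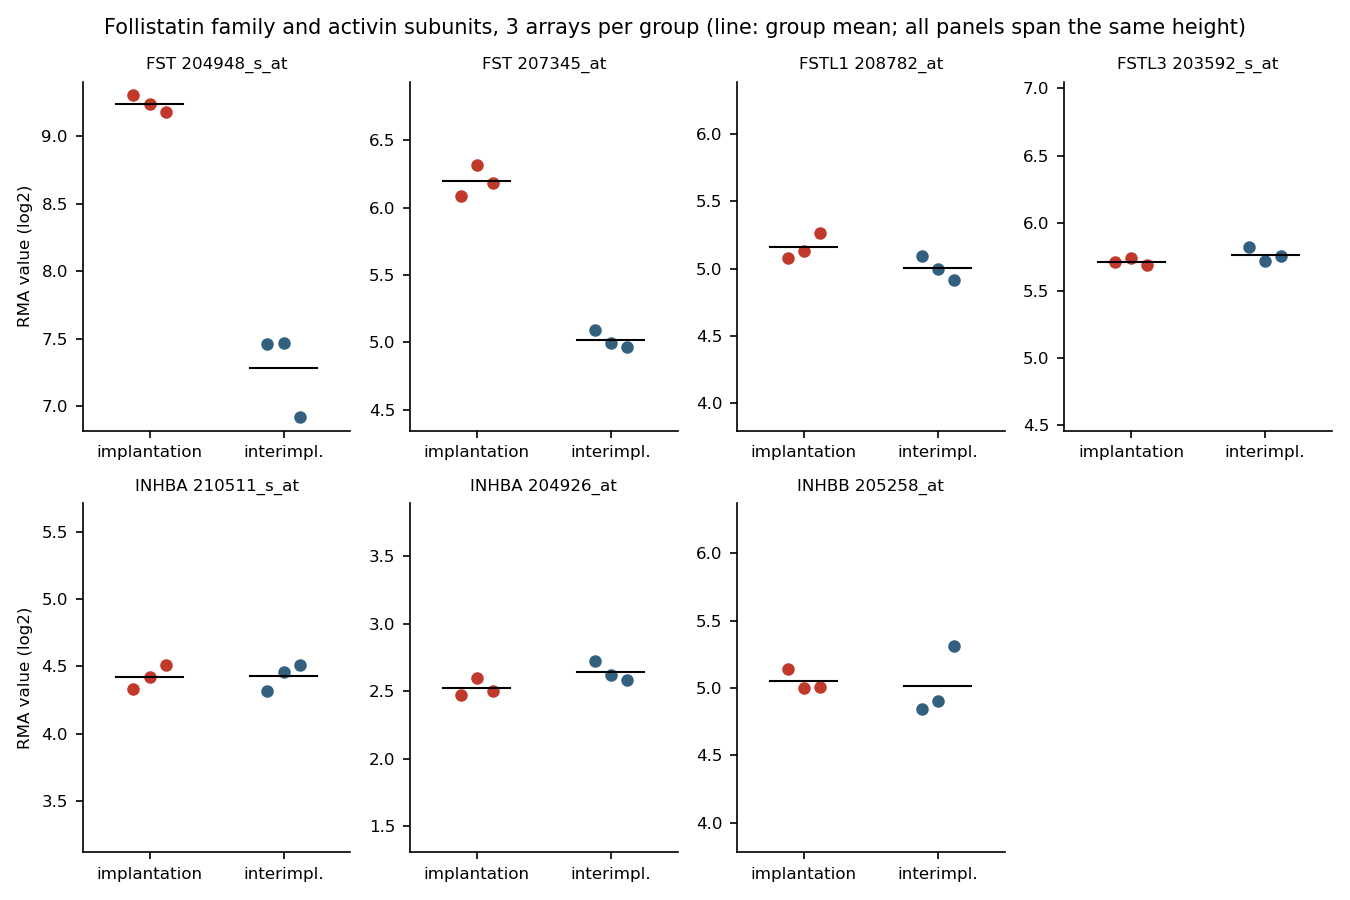
RMA values (log2) of each array for the probe sets of FST, FSTL1, FSTL3, INHBA and INHBB, with 3 implantation and 3 interimplantation arrays per panel, a line at each group mean and the same height of axis in every panel. Both FST probe sets separate the groups, by 1.96 and 1.18, while the points of the other 5 overlap.

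Among the receptors, the lower values at implantation sites lay at 1 of the 6 ACVR1B probe sets, at ACVR2A and, less far, at ACVR1. Of the 10 receptor probe sets, 6 of them from ACVR1B, 5 differences were below 0 and 5 above 0. Their median was −0.00383, beside −0.00989 over all probe sets. With the probe sets of ACVR1B averaged, 4 of the 5 receptor genes were below 0 (ACVR1, ACVR1B, ACVR2A and ACVR2B) and ACVRL1 was above. Before adjustment, limma's fit put 3 of the 10 lower (p under 0.05) and 0 higher, beside 5.23% of all probe sets lower. The receptors were chosen from this comparison, so nothing is read from these counts, and ACVR2B, ACVRL1 and 5 ACVR1B probe sets had overlapping groups and intervals that hold 0.

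ACVR2A, a type II receptor that binds activins and some BMPs, read 5.88, 6.04 and 5.93 at implantation and 6.33, 6.30 and 6.26 at interimplantation sites. All implantation arrays lay below all interimplantation arrays. The difference was −0.35 ± 0.07 SE, a level 1.27-fold lower, and it stayed between −0.39 and −0.31 over 14 alternative settings. ACVR2B, the other type II receptor, read 5.51, 5.65 and 5.72 against 5.62, 5.67 and 5.64, and its groups overlapped (difference −0.02 ± 0.08 SE, 95% interval −0.19 to 0.15).

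ACVR1B, the main type I receptor for activins, was read by 6 probe sets that did not move together. At 213198_at, the brightest, the values were 6.01, 6.12 and 6.01 against 6.58, 6.61 and 6.64, with no overlap. The difference was −0.56 ± 0.07 SE, a level 1.48-fold lower. The spread within groups was small (SD 0.07 and 0.03, n = 3). The other 5 probe sets had differences from −0.05 to 0.15, and their groups overlapped. At 208222_at the arrays read 5.15, 5.27 and 5.06 against 5.23, 5.05 and 5.17, and at 205209_at 4.55, 4.70 and 4.45 against 4.64, 4.60 and 4.62. At 208218_s_at they read 4.44, 4.26 and 4.60 against 4.32, 4.42 and 4.40. At 208219_at they read 4.24, 3.999 and 4.23 against 4.21, 3.77 and 4.05, and at the dim 208223_s_at the values were 2.95, 3.19 and 3.11 against 3.07, 2.91 and 3.08. The mean of the 6 probe sets differed by −0.057 ± 0.061 SE. Which transcripts of hamster ACVR1B each probe set reads was not tested.

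The remaining type I receptors mainly serve BMPs and their relatives. ACVR1 read 3.12, 3.37 and 3.43 against 3.61, 3.57 and 3.43, a difference of −0.23 ± 0.10 SE (95% interval −0.44 to −0.02). It kept its sign in 14 of 14 alternative settings. Implantation array 1 was the lowest, and without it the difference was −0.13. The probe set was dim and the highest implantation array just reached the lowest interimplantation array. ACVRL1, a receptor of the vessel endothelium, read 4.52, 4.62 and 4.60 against 4.51, 4.62 and 4.37, a difference of 0.08 ± 0.08 SE (95% interval −0.10 to 0.26) with overlapping groups.

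**Figure D2:**
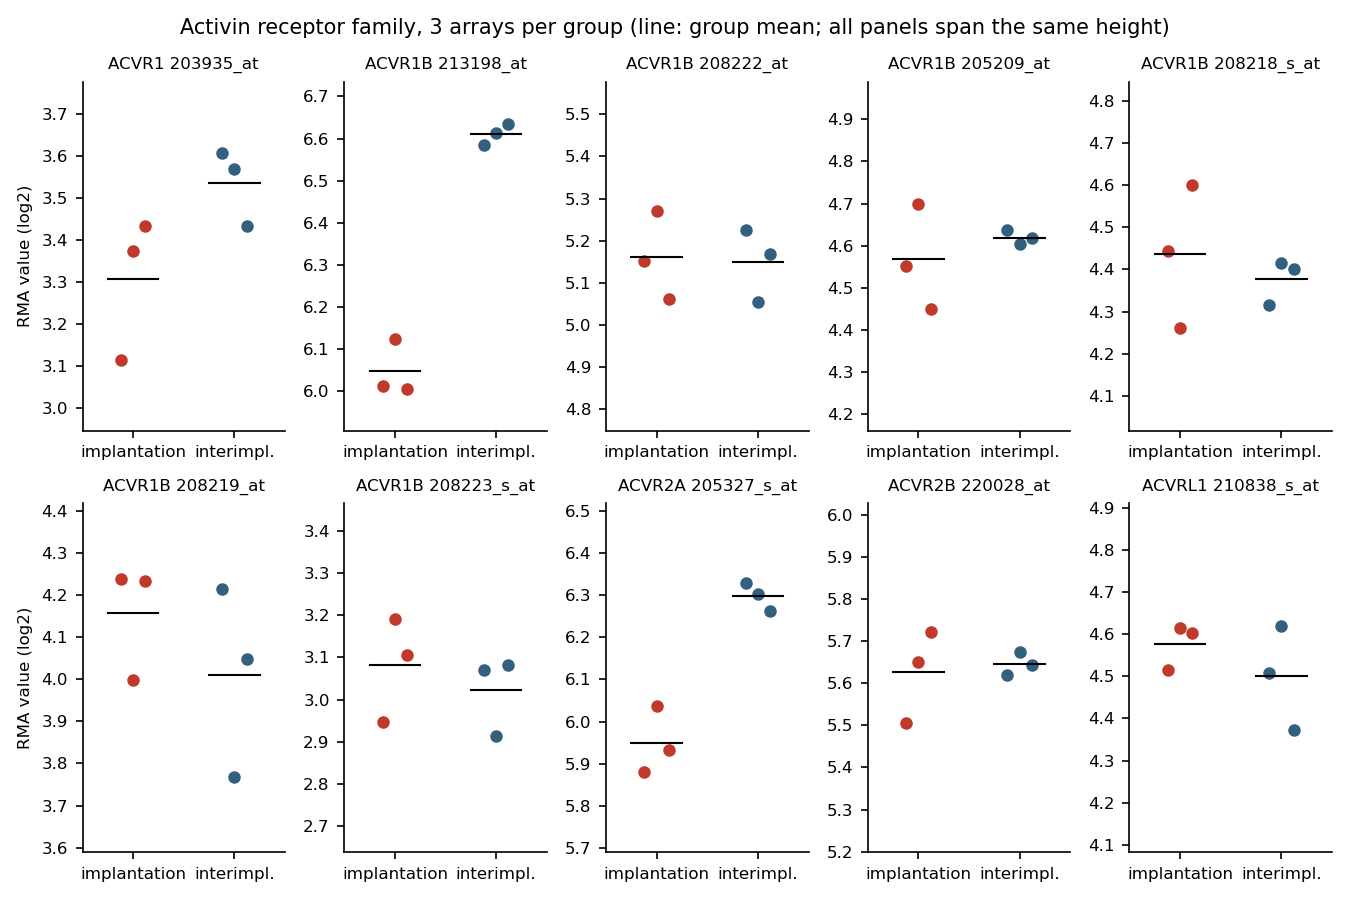
RMA values (log2) of each array for the 10 probe sets of ACVR1, ACVR1B, ACVR2A, ACVR2B and ACVRL1, with 3 arrays per group, a line at each group mean and the same height of axis in every panel. The groups separate at ACVR1B 213198_at and at ACVR2A, and the other 5 ACVR1B panels overlap.

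Counted over the set, 3 of the 17 probe sets passed an adjusted p of 0.05 in limma's fit (2 FST probe sets higher, ACVR1B 213198_at lower), where 1.06% of all 22215 probe sets passed, 0.702% higher and 0.356% lower. The groups did not overlap at 4 of the 17 (2 higher, 2 lower), beside 16.0% of all probe sets (7.72% higher, 8.30% lower). Since the genes were chosen from this comparison, nothing is read from these counts. Differences smaller than 0.2 in size were found at 12 of the 17, beside 89.8% of all probe sets.

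**Figure D3:**
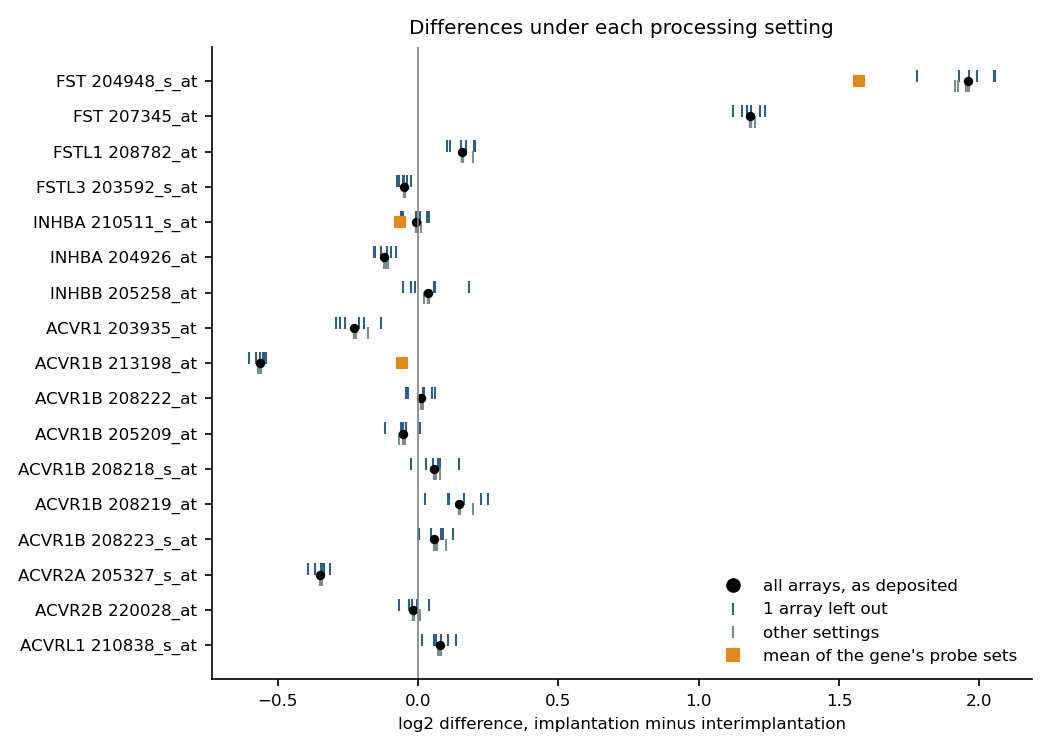
Log2 difference, implantation minus interimplantation site, of each of the 17 probe sets with all arrays as deposited (black), with 1 array left out (blue ticks), under the other settings (grey ticks) and after averaging the probe sets of a gene (orange squares). The FST differences stay above 1.12 and that of ACVR2A below −0.31 throughout, while the ACVR1B difference of −0.56 is −0.057 once all its probe sets are averaged.

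The other genes of the pathway were tested from 5 lists by role, with 106 of 129 genes measured by 197 probe sets. In limma's fit 1 probe set rose and 1 fell past an adjusted p of 0.05, or 1.02%, close to the 1.06% of all probe sets. Before adjustment, 12 were higher and 12 lower at p under 0.05, or 12.2%, beside 10.5% of all probe sets (5.27% higher, 5.23% lower). By list this share was 4.65% for other ligands, 12.5% for other receptors and coreceptors and 7.14% for SMADs and their cofactors. It was 17.1% for other antagonists and carriers, all of them lower, and 17.2% for targets. The median difference over the 5 lists was −0.01, as over all probe sets.

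The other ligands (26 genes, 43 probe sets) had 0 calls by limma, with 1 higher and 1 lower before adjustment (p under 0.05). The higher one was INHBC, which encodes the beta C subunit of activin. At 207688_s_at it read 5.50, 6.12 and 5.69 against 5.34, 4.87 and 4.55, so the groups did not overlap but both spread widely. The difference was 0.85 ± 0.19 SE and did not pass (limma adjusted p = 0.0618). It passed in 5 of 14 alternative settings, with adjusted p from 0.00965 to 0.214, the smallest without interimplantation array 1. The other INHBC probe set, 207687_at, differed by 0.03 ± 0.08 SE. INHA, the alpha subunit that turns a beta subunit into inhibin, was at −0.05 ± 0.13 SE and INHBE, the beta E subunit, at −0.07 ± 0.08 SE. TGFB1, the transforming growth factor, was at −0.27 ± 0.08 SE at 203085_s_at (limma adjusted p = 0.196) and at −0.05 at its other probe set.

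The other receptors and coreceptors (11 genes, 16 probe sets) had 0 calls by limma, with 1 higher and 1 lower before adjustment (p under 0.05) and a median of −0.07. TGFBR1, a type I receptor that like ACVR1B activates SMAD2 and SMAD3, read 3.79, 4.21 and 4.03 against 4.49, 4.34 and 4.36. The groups did not overlap, and the difference of −0.38 ± 0.10 SE did not pass (limma adjusted p = 0.138). BAMBI, a decoy receptor without a kinase, was at 0.25 ± 0.09 SE (limma adjusted p = 0.329).

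SMADs and their cofactors (25 genes, 56 probe sets) had 0 calls by limma, with 3 higher and 1 lower before adjustment (p under 0.05) and a median of −0.02. FKBP1A, which binds type I receptors and keeps them inactive without ligand, was at 0.32 ± 0.08 SE at its dim probe set 200709_at (limma adjusted p = 0.0965), and its other 3 probe sets lay between −0.07 and 0.07. NEDD4L, a ubiquitin ligase for activated SMADs, was at −0.37 ± 0.09 SE at 212445_s_at (limma adjusted p = 0.111) and passed without interimplantation array 1 (adjusted p = 0.0454). SMAD3 was at 0.32 ± 0.09 SE at 218284_at, where the groups did not overlap, and did not pass (limma adjusted p = 0.140). Its other probe sets lay between −0.09 and 0.04, with overlapping groups.

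The other extracellular antagonists and carriers (19 genes, 35 probe sets) had 0 calls by limma, with 0 higher and 6 lower before adjustment (p under 0.05) and a median of −0.05. NBL1, an antagonist of BMPs, was at −0.23 ± 0.08 SE (limma adjusted p = 0.300). DCN, the matrix proteoglycan decorin, was at −0.25 ± 0.10 SE at 201893_x_at (limma adjusted p = 0.361). With all its probe sets averaged, DCN was at −0.12 ± 0.07 SE.

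The list of SMAD2 and SMAD3 targets (30 genes, 58 probe sets) held both calls, 1 rise and 1 fall, with 7 higher and 3 lower before adjustment (p under 0.05) and a median of 0.05. COL1A1, a chain of collagen I, read 10.49, 10.40 and 10.35 against 9.70, 9.96 and 9.90 at 217430_x_at. It rose by 0.56 ± 0.09 SE (limma adjusted p = 0.00955), while its other 3 probe sets were at 0.24, 0.27 and 0.05 and did not pass. The call was lost after repeated quantile normalization (0.28, adjusted p = 0.137), after averaging its probe sets (0.28, adjusted p = 0.0677) and without implantation array 1 (adjusted p = 0.0513). TAGLN, a contractile protein also listed as a smooth muscle marker, read 4.27, 4.51 and 4.46 against 4.73, 5.07 and 5.12. It fell by 0.56 ± 0.11 SE (limma adjusted p = 0.0369), and of the 6 fits that omit an array only that without interimplantation array 1 kept the call (adjusted p in the other 5 from 0.0679 to 0.158). SMAD7 and PMEPA1, feedback inhibitors that SMAD2 and SMAD3 switch on, were in this list at 0.00 ± 0.07 SE and −0.05 ± 0.08 SE and did not pass. The SMAD7 probe set was dim, with a mean of 3.21 over all arrays.

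**Figure D4:**
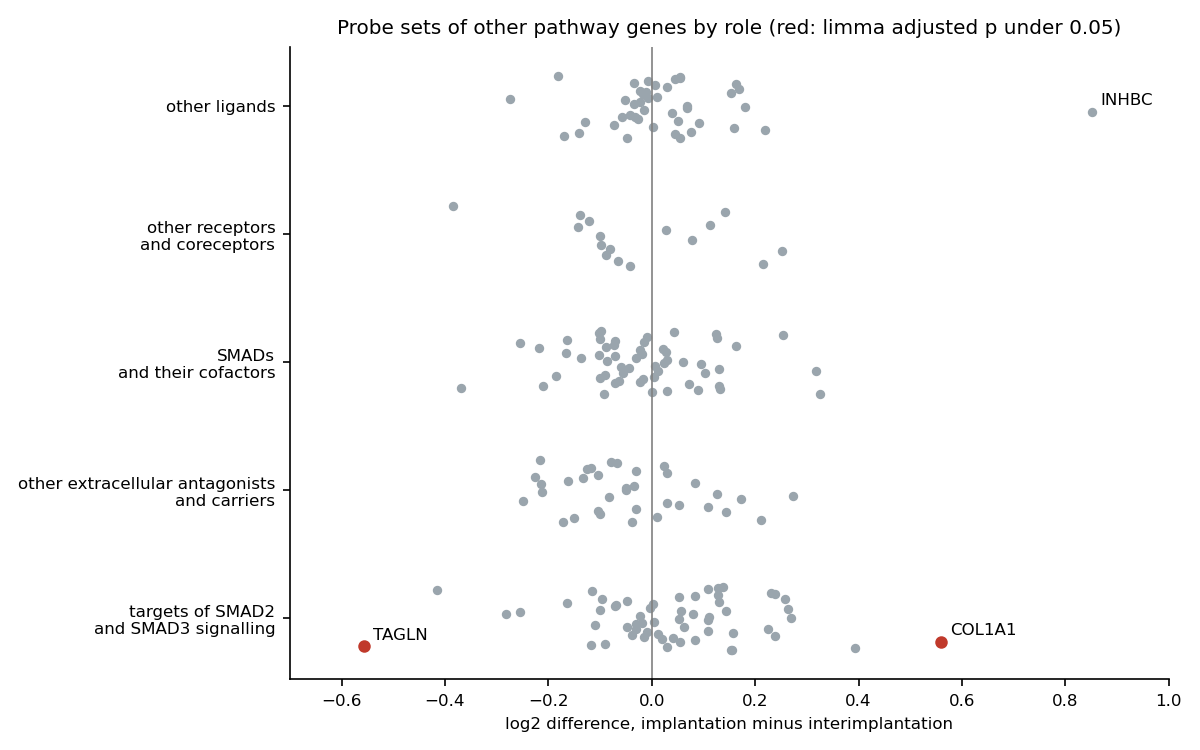
Log2 difference, implantation minus interimplantation site, of each probe set of the other pathway genes, in a row for each role, with calls of limma's fit in red. The 2 calls, COL1A1 at 0.56 and TAGLN at −0.56, lie in the target list, and INHBC at 0.85 did not pass.

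Markers of the cell types in uterine tissue were set beside these values, since in bulk tissue fewer cells of a type and less RNA per cell cannot be told apart. The mean log2 level of 15 smooth muscle genes was 5.07 to 5.09 at implantation and 5.23 to 5.38 at interimplantation sites. Past limma's threshold 0 genes were higher and 3 lower (TAGLN, ACTG2 and KCNMA1), beside 0.702% and 0.356% of all probe sets. Before adjustment 0 were higher and 6 lower (p under 0.05), beside 5.27% and 5.23% of all probe sets. ACTA2 (0.15 ± 0.08 SE), KCNMB1 (0.11 ± 0.09 SE), SMTN (0.02 ± 0.12 SE) and MYH11 (0.00 ± 0.07 SE) were not lower. For 17 epithelial genes the ranges were 4.18 to 4.30 and 4.33 to 4.38, with 1 gene lower, SOX17 (−0.78 ± 0.12 SE, limma adjusted p = 0.0103). For 17 leukocyte genes they were 4.60 to 4.63 and 4.64 to 4.68, with 1 gene lower, SPI1 (−0.49 ± 0.10 SE, limma adjusted p = 0.0440). For 17 endothelial genes (ACVRL1 among them) they were 4.37 in each array and 4.42 to 4.48, with 0 calls by limma and 0 higher and 2 lower before adjustment (p under 0.05). For 16 genes of decidual stroma they overlapped, at 5.28 to 5.34 and 5.22 to 5.32, with WT1 higher (0.74 ± 0.13 SE, limma adjusted p = 0.0191) and PDGFRA lower (−0.66 ± 0.09 SE, limma adjusted p = 0.00655). Blood genes (5 measured) were at 5.94 to 5.97 and 6.04 to 6.06, with 0 calls by limma and 2 lower before adjustment (p under 0.05), and trophoblast genes (11 measured) at 4.69 to 4.71 and 4.71 to 4.72. The means of the smooth muscle, epithelial, endothelial, leukocyte and blood lists were thus lower in all implantation arrays, as were ACVR2A and ACVR1B 213198_at. The median difference of a gene was −0.02 for smooth muscle, −0.03 for epithelium, −0.05 for endothelium, 0.0011 for leukocytes and −0.16 for blood. Before adjustment (p under 0.05, limma), 0 epithelial genes were higher and 4 lower, and 0 leukocyte genes higher and 2 lower. Of the genes of decidual stroma, 2 were higher and 1 lower. No list was tested as a whole, and the part of these cell types in the receptor differences was not tested.

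The genes most like the brighter FST probe set over the 6 arrays, by Pearson's r leaving out probe sets dimmer than the median, were ACP3 (r = 0.997), CD38 (0.997), EIF4G2 (0.996), HSP90AA1 (0.995) and NPM1 (0.992). Their differences were 0.09, 0.28, 0.59, 1.26 and 0.32, so the sizes varied widely. All 5 shared with FST the split into the 2 groups and a lowest value in interimplantation array 3, and none had the order of all 6 arrays that FST had. Those most like ACVR1B 213198_at were SRSF7 (r = 0.995), WIPI1 (0.993), WSB1 (0.991), KDM6A (0.990) and TJP1 (0.989), with differences of −0.93, −0.44, −0.41, −0.73 and −0.57. The arrays fall into the 2 groups, so these coefficients mostly restate the group difference and are given as a description.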

How the data were processed

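For each array the authors deposited a value per probe set; the submitters' processing notes name RMA and Partek 6.6. The base of the deposited values and the RMA settings are not stated in those notes; running from 1.65 to 12.1, the deposited values were read as log2. RMA gives all arrays nearly the same distribution, so a change in total RNA is not visible.

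Control probe sets (68 of 22283) were left out. Names came from the platform annotation: 19065 probe sets had 1 gene, 1043 several and 2107 none. Hamster symbols came from RefSeq. The comparison used R 4.3.3 with limma 3.58.1 (lmFit, then eBayes, two-sided, no covariate), with Benjamini-Hochberg adjustment over all probe sets and a threshold of 0.05. The fit was also run on independent values simulated from its own means and spread, which is a check of the code and not of the calls. The number of arrays limits the precision.

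The genes, lists and rules were chosen with earlier results of these data known. Named were every probe set of the 10 genes and, from each pathway list, probe sets past the threshold or, where none passed, those of the 2 smallest p. Further genes (INHA, INHBE, SMAD3, SMAD7, PMEPA1, JUN, SMAD6, TIMP1) were named for their role or after their values were seen. Marker genes were read at their brightest probe set. Alternatives were normalization, brightness, cross-hybridisation, replicate block, array weights, variance model, the mean of probe sets and leaving out each array.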

Additional observations from a re-analysis of the deposited data

How the results depend on the processing

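The differences of FST (both probe sets), ACVR2A and ACVR1B 213198_at kept their direction under every alternative run. Small differences changed sign under at least 1 of them for INHBB, INHBA 210511_s_at, ACVR2B and 3 ACVR1B probe sets (205209_at, 208218_s_at, 208222_at). Averaging the probe sets of a gene was set against the brightest probe set of FST, INHBA and ACVR1B, and moved FST 204948_s_at to 1.57 and ACVR1B 213198_at to −0.057, both by more than the spread between replicates. The other alternatives moved none of the 17 probe sets by more than that spread. Over all probe sets, 156 were higher and 79 lower; without probe sets that may cross-hybridise the counts were 36 and 20, with fewer probe sets tested, and array weights gave 133 lower. Leaving out single arrays gave 83 to 140 higher and 33 to 90 lower. The pathway lists had 1 higher call and 1 lower. The higher count was 0 after repeated quantile normalization, on leaving out cross-hybridising probe sets and on averaging those of a gene, and 2 with either filter on brightness, array weights, or an intensity trend with robust estimation, where INHBC was added. The lower count was 0 without cross-hybridising probe sets. Leaving out single arrays gave 0 to 2 higher and 0 to 2 lower. Without implantation array 2, SMAD6 (0.57, adjusted p = 0.0327, limma) was added. The lower call there was JUN (−0.51, adjusted p = 0.0458, limma), and TAGLN did not pass. TIMP1 (0.51, adjusted p = 0.0411, limma) was added without interimplantation array 2.

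Whether arrays of the same replicate number share an animal is not known. The deviations of same-numbered arrays from their group means correlated at 0.05, −0.0025 and 0.07 over probe sets. Those of differently numbered arrays correlated at −0.07 to 0.02. Arrays 1 and 3 were most like their own number in the other group, and arrays 2 were not. Correlations this close to 0 cannot settle whether the arrays are paired. With the replicate number as a block, 159 probe sets were higher and 93 lower over all probe sets, and the pathway lists had 1 higher and 2 lower calls, JUN being added (−0.41, adjusted p = 0.0451, limma).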
